A study of Homo sapiens with 2 samples.

Results

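A set of 43 genes of the extracellular matrix (collagens, laminins, fibronectin and other matrix glycoproteins, with the enzymes that modify or cross-link collagen and elastin) was described in MDA-MB-231 cells after knockdown of CDK14. The members were chosen by gene symbol, with proteoglycans left out, and 42 of the 43 had a row among the 29452 rows of the expression table. POSTN, which encodes periostin, was not analysed here. MDA-MB-231 is an established human breast cancer line without oestrogen receptor, progesterone receptor or HER2 amplification. One group, called CDK14-sh, carried a short hairpin RNA against CDK14, the kinase partner of cyclin Y that acts on the Wnt co-receptor LRP6. The other group, called scramble, carried a control hairpin, and both are named as the labels name them. The labels give neither the hairpin sequence, nor the means of delivery, nor whether the cells were a pool or 1 clone.

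With a single library on each side, no difference can be set against replicate error, and p-values are not given. Levels are RPKM, that is reads per kilobase of summed exon length, scaled to the reads assigned to genes in the library. The CDK14-sh library held 15478156 assigned reads and the scramble library 17217564. Folds are plain ratios of RPKM, and each range in parentheses is the 95% Clopper-Pearson interval of the counts (counting error only). A gene counted as measured from 1 RPKM in the higher library. It counted as past a fold when the ratio reached it after adding 0.1 RPKM to both levels, which makes folds of scarce transcripts look smaller. Higher and lower describe these libraries, and in bulk RNA fewer cells making a transcript and less transcript per cell cannot be told apart.

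Matrix falls into sheet and mesh. The basement membrane is a sheet beneath epithelia in which a collagen IV network and a laminin network are held together by nidogens, and integrins of the epithelial cell bind the laminins. The interstitial matrix beyond it is built of fibrillar collagens, fibronectin and fibrillin microfibrils, and carries matricellular proteins that signal to cells more than they bear load. In breast tumours, fibroblasts make most of the interstitial matrix, while the tumour cells add basement membrane chains and matricellular proteins of their own.

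The targeted transcript stood at 0.548 RPKM (58 reads) in CDK14-sh and 2.48 RPKM (292 reads) in scramble, 4.53-fold lower (3.40 to 6.11). VIM, encoding vimentin, a marker of this mesenchymal-like line, was at 146 and 249 RPKM, in that order, while of 5 genes listed as low in the line ESR1, PGR and CDH1 stayed below 0.04 RPKM in both libraries. The other two were detected, EPCAM at 5.46 and 5.33 RPKM and ERBB2 at 2.96 and 2.33 RPKM. Of 9 fibroblast markers, 7 had a row and their RPKM summed to 0.0615 in CDK14-sh and 0.139 in scramble, with DCN, LUM, FAP and TCF21 at 0 in both. The sums were 1.65 and 1.91 for 5 endothelial markers, led by KDR, 1.14 and 1.06 for 3 leukocyte markers, and 1.29 and 0.943 for 3 muscle markers.

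Of the 42 members, 31 were measured: 10 of 13 in the basement membrane, 16 of 24 in the interstitial matrix and all 5 enzymes. None of the 31 reached 2-fold in either direction, where 3.21% of the 14878 measured rows of the table were higher by 2-fold or more and 3.47% lower. At 1.5-fold, 4 members were lower (LAMA5, LAMA3, COL5A1 and COL8A1), which is 12.9% of the measured members against 9.55% of all measured rows. Another 2 members, COL4A5 and THBS1, were at least 1.5-fold higher, 6.45% against 9.11%. Matrix genes are long, with a median summed exon length of 8.41 kb against 3.83 kb for all measured rows. Among measured rows of at least 5 kb, 8.46% were 1.5-fold lower and 3.58% 1.5-fold higher, while 14.8% and 7.41% of the 27 measured members of that length were. The called members number only 4 and 2, too few for these shares to set the matrix genes apart as a group. The calls also moved with the scale and the added level. With both libraries scaled to equal summed RPKM on the same rows, THBS1 lost its call and FBN1 and LAMB2 were added, giving 6 lower (all rows 14.0%) and 1 higher (5.83%). Adding 1 RPKM in place of 0.1 ended the call of LAMA3. Leaving mitochondrial reads out of the totals ended that of COL8A1 and added TGFBI. Their median log2 ratio was -0.0265, against 0.0437 for all measured rows and -0.0165 for those of at least 5 kb.

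Within the list, laminin chains were mostly lower in CDK14-sh, while collagen IV chains were level or higher, and the most abundant matricellular transcript, THBS1, was higher. The basement membrane members together took 0.143% of assigned reads (0.142% to 0.145%, Clopper-Pearson) in CDK14-sh and 0.166% (0.164% to 0.168%) in scramble. Interstitial members took 0.333% (0.330% to 0.336%) and 0.299% (0.296% to 0.301%). THBS1 alone supplied 23240 of the 51562 interstitial reads in CDK14-sh and 16369 of 51440 in scramble. Without THBS1 the interstitial share was 0.183% in CDK14-sh and 0.204% in scramble, so the direction of the interstitial sum rests on that gene. Without LAMB3, its most abundant member, the basement membrane share was still lower, at 0.106% against 0.122%.

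**Figure D1:**
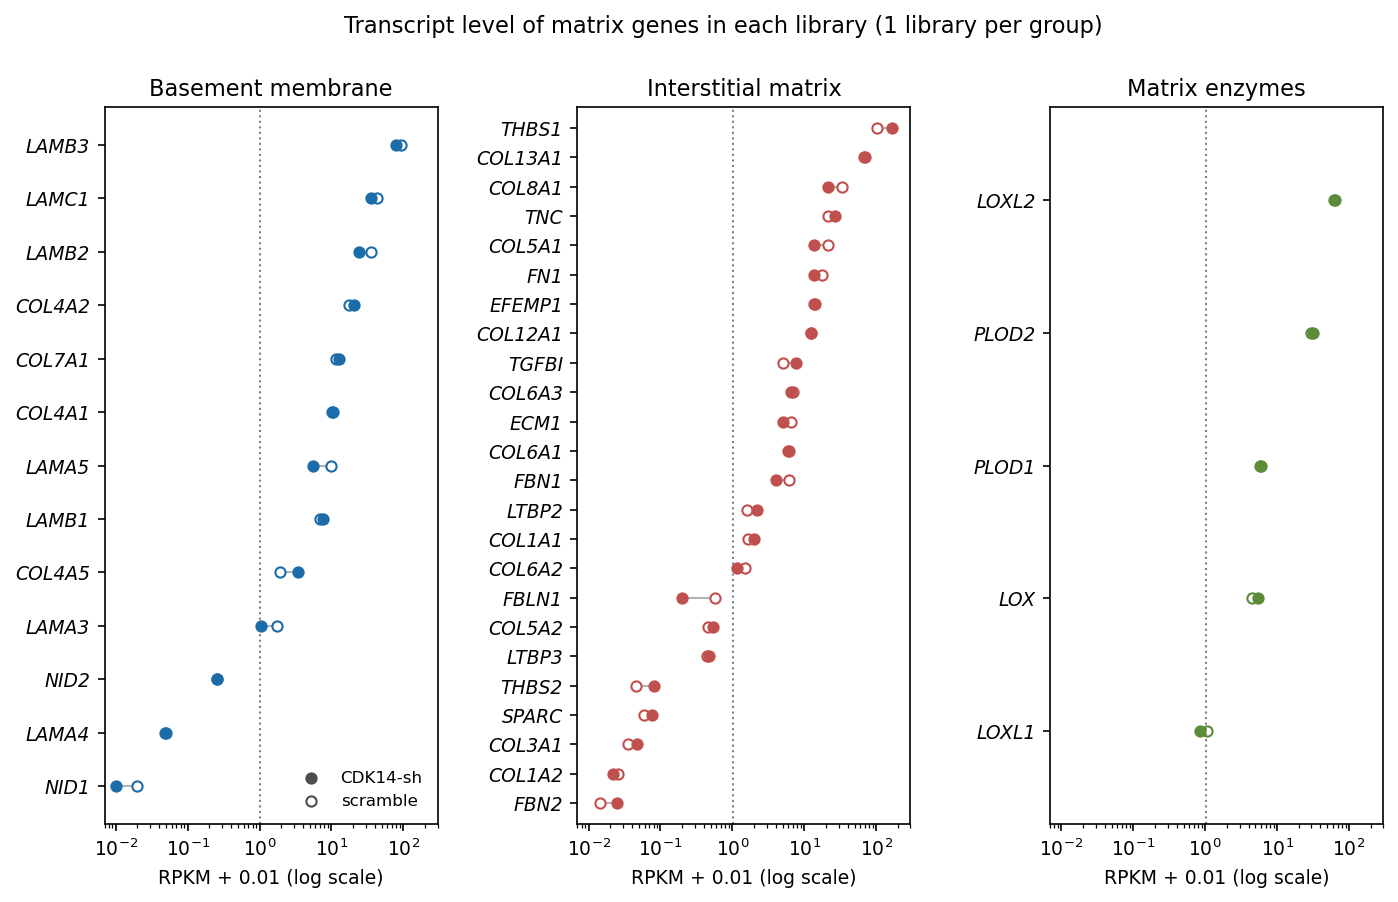
RPKM of the 42 members in each library, on a log axis after adding 0.01 RPKM, with filled points for CDK14-sh and open points for scramble. The dotted line marks 1 RPKM, and levels run from 0 for NID1 to 164 RPKM for THBS1.

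Collagen IV forms the network of the basement membrane from trimers of its alpha chains, of which alpha1 and alpha2 are found in nearly all tissues and alpha5 in kidney, lung and some epithelia. COL4A1 (chromosome 13, 110148963 to 110307149, minus strand of GRCh38) had 10.2 RPKM (1299 reads) in CDK14-sh and 10.4 RPKM (1472 reads) in scramble. The ratio was 0.982 and its counting interval (0.910 to 1.06) included 1. COL4A2, its neighbour on the plus strand (110305812 to 110513027), stood at 20.3 RPKM (2741 reads) and 17.7 RPKM (2659 reads), which is 1.15-fold higher in CDK14-sh (1.09 to 1.21). Per length, COL4A2 was 1.98 times the level of COL4A1 in CDK14-sh and 1.70 times in scramble. The COL4A2 row shares 257 exonic bases with COL4A2-AS1 and COL4A2-AS2 on the opposite strand. COL4A5 (chromosome X, 108439844 to 108697545, plus strand) had the largest ratio upward of all measured members. It stood at 3.47 RPKM (469 reads) in CDK14-sh and 1.92 RPKM (289 reads) in scramble, 1.81-fold higher (1.56 to 2.10). The 3 chains thus differed in ratio, with COL4A1 level and COL4A5 farthest from level.

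COL4A1 and COL4A2 are read outward from a common promoter, which is shown because both genes of the pair are members, and the counting intervals of their ratios did not overlap. In RefSeq (GRCh38.p14) their start sites lie 127 bases apart, COL4A1 at 110307157 and COL4A2 at 110307284. The window below is chr13:110307034-110307333 on the plus strand, 5′ to 3′, and the capitals mark the stretch from the COL4A1 start to the COL4A2 start.

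COL4A2 promoter: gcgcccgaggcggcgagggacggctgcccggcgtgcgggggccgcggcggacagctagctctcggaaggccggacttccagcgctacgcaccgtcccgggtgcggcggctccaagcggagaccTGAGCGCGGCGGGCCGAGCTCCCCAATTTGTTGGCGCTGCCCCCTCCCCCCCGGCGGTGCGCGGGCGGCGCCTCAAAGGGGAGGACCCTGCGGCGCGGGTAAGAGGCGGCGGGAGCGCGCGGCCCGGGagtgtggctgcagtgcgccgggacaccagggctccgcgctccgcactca

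The window has 77.7% G+C and 45 CpG dinucleotides, against medians of 58.3% and 14 over the 27303 RefSeq promoter windows of 300 bases. It holds 1 CCAAT and 1 GGGCGG, counted on both strands, and no TATAAA.

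Laminins are cross-shaped trimers of an alpha, a beta and a gamma chain. LAMA5 (chromosome 20, 62307955 to 62367312, minus strand) encodes the alpha5 chain of the most widespread epithelial laminins and had the lowest ratio of the 31 measured members. Its level was 5.61 RPKM (1248 reads) in CDK14-sh and 9.85 RPKM (2435 reads) in scramble, 1.75-fold lower (1.64 to 1.88). The LAMA5 row shares 1500 exonic bases with LAMA5-AS1 and ADRM1 on the opposite strand, and although the library kit kept strand, whether counting used it is not given in the sources used here. LAMB2 (chromosome 3, 49121114 to 49133118, minus strand), whose beta2 chain can pair with alpha5, stood at 24.2 RPKM (2570 reads) and 35.3 RPKM (4177 reads), 1.46-fold lower (1.39 to 1.54). LAMB1, which encodes the alternative beta1 chain, went the other way: 7.68 RPKM (967 reads) against 6.84 RPKM (958 reads), 1.12-fold higher (1.03 to 1.23). The level of LAMB2 was therefore 3.15 times that of LAMB1 in CDK14-sh and 5.17 times in scramble. The LAMB1 row shares 501 exonic bases with DLD and CTB-13F3.1 on the opposite strand. LAMC1, encoding the gamma1 chain common to both kinds of trimer, stood at 36.1 RPKM (4697 reads) and 43.4 RPKM (6280 reads), 1.20-fold lower (1.16 to 1.25).

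The start regions of LAMA5 and LAMB2 are shown because these were the laminin genes with the lowest ratios among those above 5 RPKM in both libraries. They are chr20:62367263-62367562 and chr3:49133001-49133300, both on the minus strand of GRCh38.p14 from RefSeq, printed 5′ to 3′ as transcribed, with capitals from the start site onward.

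LAMA5 promoter: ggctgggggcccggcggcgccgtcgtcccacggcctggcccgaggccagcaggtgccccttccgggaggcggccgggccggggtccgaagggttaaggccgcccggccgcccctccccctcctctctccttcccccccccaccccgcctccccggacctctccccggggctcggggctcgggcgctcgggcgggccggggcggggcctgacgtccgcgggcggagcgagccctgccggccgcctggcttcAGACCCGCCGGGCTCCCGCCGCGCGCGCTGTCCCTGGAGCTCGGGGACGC

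LAMB2 promoter: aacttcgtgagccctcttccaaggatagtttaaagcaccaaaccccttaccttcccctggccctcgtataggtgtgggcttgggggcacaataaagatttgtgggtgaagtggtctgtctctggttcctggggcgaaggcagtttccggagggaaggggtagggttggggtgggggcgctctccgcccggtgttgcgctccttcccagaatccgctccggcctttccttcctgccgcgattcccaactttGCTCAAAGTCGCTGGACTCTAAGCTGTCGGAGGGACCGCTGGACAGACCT

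The 2 windows differ in base composition: LAMA5 has 82.7% G+C with 41 CpG and 5 GGGCGG, and LAMB2 58.7% with 15 CpG and 1 GGGCGG. Neither holds TATAAA or CCAAT. Over the 26 measured members with a window, 21 held GGGCGG, 7 CCAAT and 4 TATAAA on either strand, which is 80.8%, 26.9% and 15.4%. The shares over all 27303 windows were 44.6%, 35.7% and 12.0%, and the members' windows were richer in G+C, with a median of 67.8%.

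The laminin of hemidesmosomes, the junctions that rivet epithelial cells to the basement membrane, holds the alpha3 and beta3 chains. LAMB3 (chromosome 1, 209614870 to 209652466, minus strand), encoding beta3, was the most abundant basement membrane transcript at 78.2 RPKM (5749 reads) in CDK14-sh and 93.9 RPKM (7681 reads) in scramble, 1.20-fold lower (1.16 to 1.24). LAMA3, encoding alpha3, was far below it, at 1.04 RPKM (217 reads) and 1.75 RPKM (408 reads), a ratio of 0.592 (0.499 to 0.699). Its row sums the exons of a long and a short isoform over 13.5 kb, which lowers the RPKM of the short form, and the table does not part the isoforms. LAMB3 was 75.4 times the level of LAMA3 in CDK14-sh and 53.6 times in scramble.

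Of the laminins, 5 of the 6 measured laminin chains were below a log2 ratio of 0 and 1 above, with a median of -0.40, while 6743 of all 14878 measured rows and 2879 of the 5555 of at least 5 kb were below 0. LAMA4, an alpha chain of endothelium and muscle, had 7 reads in CDK14-sh and 8 in scramble. Laminin chains together took 0.0999% of assigned reads in CDK14-sh and 0.127% in scramble, while collagen IV took 0.0291% and 0.0257%. COL7A1, whose protein forms the anchoring fibrils under the basement membrane, stood at 12.9 RPKM (2216 reads) and 11.5 RPKM (2209 reads), 1.12-fold higher (1.05 to 1.18). The nidogens that join the 2 networks were scarce: NID2 had 24 and 27 reads, and NID1 had 0 reads in CDK14-sh and 1 in scramble. A count of 0 allows up to 0.0331 RPKM for NID1. Of the 24 NID2 reads an unknown part may come from C14orf166, which shares 4820 exonic bases on the opposite strand.

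**Figure D2:**
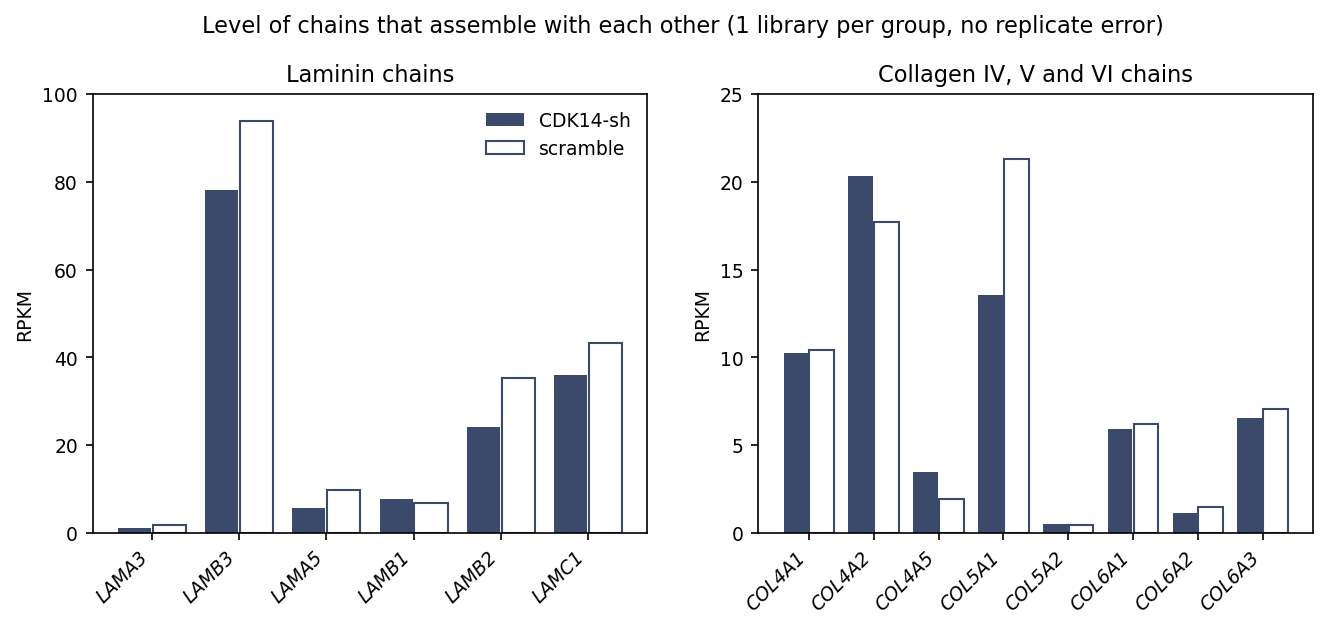
RPKM of laminin chains (left) and of collagen IV, V and VI chains (right), with filled bars for CDK14-sh and open bars for scramble, 1 library each and no error bars. LAMB3, LAMC1, LAMB2, LAMA5 and LAMA3 are lower in CDK14-sh, and COL4A2 and COL4A5 higher.

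Fibrillar collagens, the load-bearing fibres of the interstitial matrix, were at low level apart from 1 chain. COL5A1 (chromosome 9, 134641774 to 134844843, plus strand), encoding the alpha1 chain of collagen V, which starts and limits the growth of collagen fibrils, stood at 13.5 RPKM (2343 reads) in CDK14-sh and 21.3 RPKM (4107 reads) in scramble. It was 1.58-fold lower, with the ratio between 0.603 and 0.668. COL5A2, its usual partner chain, was at 0.524 RPKM (58 reads) and 0.446 RPKM (55 reads), below the level required. COL5A1 thus exceeded COL5A2 25.8 times in CDK14-sh and 47.8 times in scramble. COL1A1, the main chain of collagen I, was at 1.99 RPKM (303 reads) and 1.65 RPKM (279 reads), 1.21-fold higher (1.02 to 1.43). COL1A2, which completes the usual collagen I trimer, had 2 and 3 reads, and COL3A1, encoding collagen III, had 4 and 3. These 2 counts are too few for a fold.

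Collagens that decorate fibrils or form meshes and anchors lay closer to level, with COL8A1 as the exception. COL8A1 (chromosome 3, 99638475 to 99799226, plus strand), a short-chain collagen of subendothelial and corneal meshworks, stood at 21.5 RPKM (3127 reads) in CDK14-sh and 33.0 RPKM (5350 reads) in scramble, 1.54-fold lower (1.47 to 1.61). COL13A1, a collagen anchored in the cell membrane, was the most abundant collagen of the list at 71.0 RPKM (6328 reads) and 67.1 RPKM (6660 reads). Its ratio was 1.06 (1.02 to 1.09). COL12A1, which binds the surface of collagen fibrils, was at 12.4 RPKM (2398 reads) and 12.5 RPKM (2692 reads), a ratio of 0.991 (0.937 to 1.05). Collagen VI forms beaded filaments from alpha1, alpha2 and alpha3 chains, and its chains were close to level or lower. COL6A3 stood at 6.55 and 7.03 RPKM, 1.07-fold lower (1.01 to 1.14), and COL6A1 at 5.93 and 6.19 RPKM with an interval that included 1 (ratio 0.847 to 1.08). COL6A2, on 95 and 136 reads, was the scarcest chain at 1.14 and 1.47 RPKM, with a ratio of 0.777 (0.592 to 1.02).

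Fibronectin and the microfibril proteins went both ways. FN1 (chromosome 2, 215360440 to 215436172, minus strand), encoding fibronectin, the cell-adhesive glycoprotein that integrins pull into fibrils, stood at 13.6 RPKM (3646 reads) in CDK14-sh and 17.4 RPKM (5181 reads) in scramble, 1.28-fold lower (1.22 to 1.33). FBN1 (chromosome 15, 48408306 to 48645849, minus strand), encoding fibrillin-1, the backbone of microfibrils, stood at 4.06 RPKM (1009 reads) and 6.08 RPKM (1680 reads), a ratio of 0.668 (0.617 to 0.723) and just short of 1.5-fold on the scale used for counting. LTBP2, a fibrillin-like protein that binds microfibrils, was higher, at 2.21 RPKM (311 reads) and 1.58 RPKM (248 reads), 1.39-fold (1.18 to 1.65). Its row shares 621 exonic bases with CTD-2207P18.1 on the opposite strand. EFEMP1, also called fibulin-3, was level at 14.1 and 13.6 RPKM, with an interval from 0.947 to 1.14. FBLN1, encoding fibulin-1 of elastic fibres and basement membranes, was below the level required. It had 21 reads in CDK14-sh (0.186 RPKM) and 71 in scramble (0.566 RPKM), a ratio of 0.329 (0.192 to 0.542), the lowest of any member with more than 10 reads. LTBP3 (74 and 78 reads) was also below 1 RPKM, and FBN2 had 3 and 1 reads.

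Of the measured matricellular proteins and adhesive glycoproteins, THBS1, TGFBI and TNC were higher in CDK14-sh and ECM1 lower. THBS1 (chromosome 15, 39581079 to 39599466, plus strand) encodes thrombospondin-1, which restrains angiogenesis and can activate latent TGF-beta. It was the most abundant member at 164 RPKM (23240 reads) in CDK14-sh and 104 RPKM (16369 reads) in scramble, 1.58-fold higher (1.55 to 1.61). Of its row, 1182 exonic bases are shared with rows on the opposite strand. TGFBI, encoding a TGF-beta-induced protein that binds collagens and integrins, stood at 7.73 RPKM (934 reads) and 5.13 RPKM (690 reads), 1.51-fold higher (1.36 to 1.66), which fell just short of 1.5-fold once 0.1 RPKM was added. TNC, encoding the anti-adhesive glycoprotein tenascin-C, stood at 27.1 RPKM (4044 reads) and 21.5 RPKM (3574 reads), 1.26-fold higher (1.20 to 1.32). ECM1, a secreted glycoprotein that binds matrix proteins, was lower, at 5.10 RPKM (265 reads) and 6.62 RPKM (383 reads), 1.30-fold (1.11 to 1.53). SPARC (5 and 4 reads) and THBS2 (7 and 4 reads), both abundant in stromal fibroblasts, were near the limit of detection.

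The THBS1 promoter is shown as that of the most abundant member, and one that was past 1.5-fold upward. It lies at chr15:39580829-39581128 on the plus strand (GRCh38.p14, RefSeq), with capitals from the start site onward.

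THBS1 promoter: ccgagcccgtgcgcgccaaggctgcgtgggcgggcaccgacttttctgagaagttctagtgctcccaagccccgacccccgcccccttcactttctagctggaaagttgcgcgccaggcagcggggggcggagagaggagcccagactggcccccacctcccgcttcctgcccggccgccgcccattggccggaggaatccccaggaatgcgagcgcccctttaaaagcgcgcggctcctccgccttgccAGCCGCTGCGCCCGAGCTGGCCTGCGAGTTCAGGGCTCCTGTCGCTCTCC

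This window has 70.0% G+C, 29 CpG, 4 GGGCGG and 1 CCAAT, and no TATAAA.

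**Figure D3:**
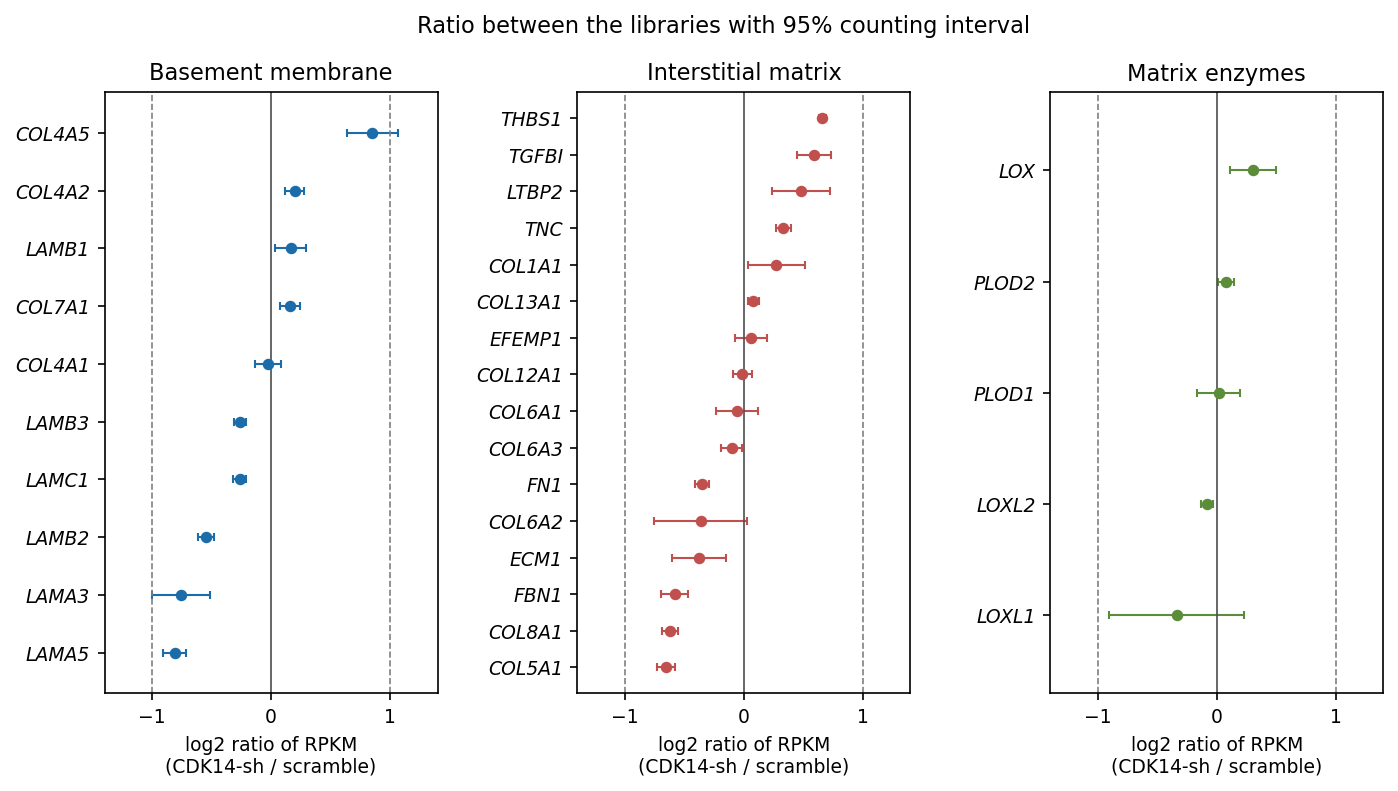
Log2 ratio of RPKM (CDK14-sh over scramble) for the 31 measured members, with 95% counting intervals that cover counting error only and dashed lines at 2-fold. All points lie between the dashed lines, from LAMA5 at 1.75-fold lower to COL4A5 at 1.81-fold higher.

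Of the enzymes that modify and cross-link the fibres, LOXL2, PLOD1 and PLOD2 were close to level and LOX was higher. LOXL2, a lysyl oxidase that cross-links collagen IV among other substrates, was the most abundant, at 60.9 RPKM (5382 reads) in CDK14-sh and 64.5 RPKM (6340 reads) in scramble, 1.06-fold lower (1.02 to 1.10). Its row shares 2017 exonic bases with other rows, among them ENTPD4 on the same strand. LOX, the founding lysyl oxidase, stood at 5.45 RPKM (461 reads) and 4.41 RPKM (415 reads), 1.24-fold higher (1.08 to 1.41), and LOXL1, which acts on elastin, at 0.835 RPKM (47 reads) and 1.05 RPKM (66 reads), with an interval from 0.533 to 1.17. PLOD2, the lysyl hydroxylase of collagen telopeptides, was at 31.5 and 29.9 RPKM, a ratio of 1.06 (1.01 to 1.10). PLOD1, which hydroxylates lysines in the collagen helix, was at 5.89 and 5.83 RPKM (0.892 to 1.14). Counts of LOX and LOXL1 include exons that lie opposite SRFBP1 and LOXL1-AS1.

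Other genes of the matrix were taken from lists written by function. Of 13 further basement membrane genes, 4 were measured and 0 reached 2-fold. NTN4, encoding netrin-4, which binds laminin gamma chains, was lowest at 6.03 RPKM in CDK14-sh and 9.66 RPKM in scramble, 1.60-fold lower (1.41 to 1.82). PXDN, encoding peroxidasin, which forms the sulfilimine bonds between collagen IV trimers, was 1.35-fold lower (1.29 to 1.40). COL17A1, the transmembrane collagen of hemidesmosomes, was 1.34-fold higher (1.18 to 1.53) and FRAS1 1.16-fold higher (1.04 to 1.31). Of 38 further interstitial genes, 8 were measured and 0 reached 2-fold. With 3.21% of all measured rows 2-fold higher and 3.47% lower, 0 among so few genes sets neither list apart. MATN2 (matrilin-2) was 1.95-fold lower (1.63 to 2.33) and EDIL3, an integrin ligand, 1.89-fold lower (1.73 to 2.07), while COL27A1, a fibrillar collagen, was 1.75-fold higher (1.58 to 1.93) and MFAP2, a microfibril protein, 1.41-fold higher (1.06 to 1.89).

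The machinery that folds, modifies and trims collagen was measured for 20 of 31 genes. Of these, 13 were above and 7 below a log2 ratio of 0, with a median of 0.10, and 0 passed 2-fold. Over all measured rows, 8135 of 14878 were above 0, with a median of 0.0437, and 3.21% were 2-fold higher and 3.47% lower. P3H2, a prolyl 3-hydroxylase that acts on collagen IV among others, was the lowest of the 20 genes. It stood at 6.84 RPKM (593 reads) in CDK14-sh and 13.6 RPKM (1313 reads) in scramble, 1.99-fold lower (1.81 to 2.20). FKBP14, a prolyl isomerase of the endoplasmic reticulum, was 1.58-fold higher (1.40 to 1.80). P4HA1, a catalytic subunit of prolyl 4-hydroxylase and not the only such subunit measured, was 1.41-fold higher (1.29 to 1.54). LOXL4, a further lysyl oxidase, was 1.45-fold lower (1.24 to 1.68).

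Among 14 measured matrix receptors, 3 were at least 2-fold lower (21.4%, against the 3.47% of all measured rows given above) and 0 were 2-fold higher. These were ITGB1 (142 RPKM in CDK14-sh and 329 in scramble), ITGA1 (0.988 and 2.21 RPKM) and ITGB4 (4.14 and 8.38 RPKM), the last a partner of integrin alpha6 in binding laminin at hemidesmosomes. ITGB4 only just reached 2-fold, the ITGA1 row overlaps PELO on the same strand, and with 1 RPKM added only ITGB1 passed. The ITGB1 row overlaps RP11-462L8.1 on the opposite strand. Over rows overlapping no other, 7 receptors were measured and only ITGB4 passed. Without mitochondrial reads in the totals ITGB4 did not pass. DDR1, a receptor kinase for collagens, was 1.82-fold higher, on 277 reads in CDK14-sh and 169 in scramble. The laminin-binding chains ITGA6 (160 and 243 RPKM) and ITGA3 (32.0 and 50.3 RPKM) were also lower, and were picked after their values were seen. Of the 14 receptors, 9 were below a log2 ratio of 0 and 5 above, against 6743 and 8135 of all measured rows. The 5 above 0 were DDR1, ITGA5, ITGAV, CD44 and MRC2.

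**Figure D4:**
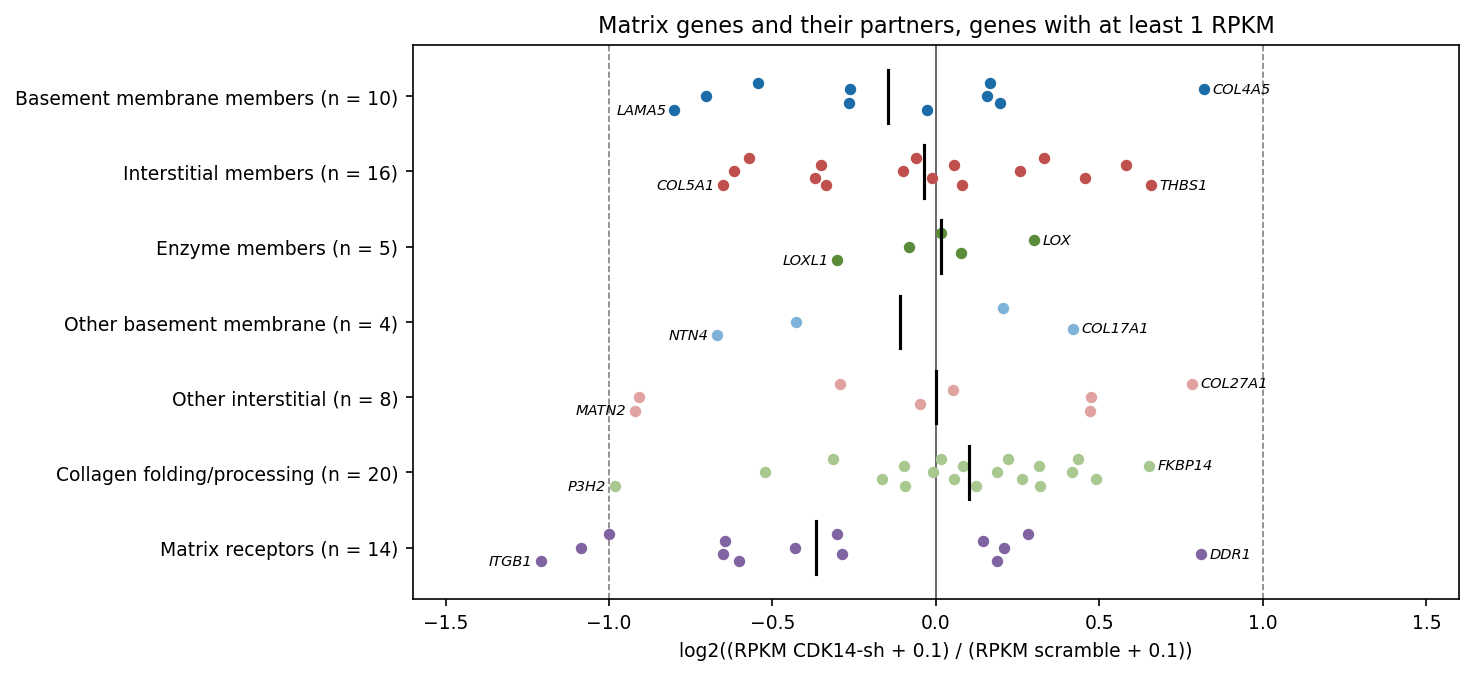
Log2 ratio with 0.1 RPKM added for measured members by class and for the other lists of matrix genes, 1 point a gene, with the median as a black bar and dashed lines at 2-fold. Medians run from -0.37 for matrix receptors to 0.10 for collagen folding and processing, and the outermost gene of each list is named.

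Words of 7 bases in the 3' untranslated region (UTR) had been picked earlier from these same ratios as common among lower genes, so their place in members supports nothing. One pair of overlapping words is GTCATGC with the word TCATGCA, the other ATCCATA with the word TCCATAA, each read on the transcribed strand. At least 1 of them occurred in 5 of the 31 measured members (16.1%) and in 2608 of 10376 measured protein-coding genes (25.1%), using for each gene the longest 3' UTR of the GENCODE v29 basic set. The median length of that 3' UTR was 1106 bases in the members and 1363 in all these genes, and the shares are not adjusted for length. The laminin genes LAMA5, LAMA3 and LAMB2 and the genes COL8A1 and FBN1 carried none, while LAMB3, also lower, carried 1 TCATGCA, and COL1A1 and COL4A2, both higher, carried 1 or 2 words. The COL4A2 word lies at chr13:110360347-110360371, far before the end of the COL4A2 row at 110513027. It belongs to the isoform with the longest 3' UTR, and the 3' UTR at the end of the row was not examined. COL5A1, which was lower, carried 1 GTCATGC and 1 TCATGCA. THBS1, which was higher, carried 1 ATCCATA and 1 TCCATAA in overlap. The sites below are shown because they stand in members of opposite direction, and capitals mark the word. They lie at chr9:134843742-134843766, chr9:134842924-134842948 and chr15:39598033-39598057, all on the plus strand of GRCh38.

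COL5A1 site 1: agccgttcaGTCATGCcatgcgctg

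COL5A1 site 2: ggctttcaaTCATGCAcggaaaccc

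THBS1 site: ttggaaggaATCCATAaatgcgtgt

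Directions of the smallest differences depended on the scale between the libraries. Scaling both libraries to equal summed RPKM moved plain ratios by -0.15 log2 and the median of all measured rows to -0.11. On the same rows it gave 339 rows higher by 2-fold or more and 713 lower in place of 478 and 516. In TPM, where the level required and the added 0.1 are also on the TPM scale and more rows enter, 609 were higher and 1128 lower. On both scales COL13A1, EFEMP1, PLOD1 and PLOD2 changed sign, COL4A5, THBS1, TGFBI, LTBP2, TNC, LOX, COL1A1, COL4A2, LAMB1 and COL7A1 kept theirs, and so did each member that was lower. Mitochondrial transcripts took 17.1% of assigned reads in CDK14-sh and 14.5% in scramble. With them left out of the totals, COL4A1 and COL12A1 changed sign.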

How the data were processed

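RNA sequencing was done on total RNA of MDA-MB-231 cells with a stranded mRNA kit, per the labels' protocols, with 1 library per group. The authors deposited RPKM values for 29452 rows, with exon positions and summed exon length, per the file headers. Tools listed in the submitters' processing notes are featureCounts, Subread 1.5.1 and Bowtie 0.12.2; the listed builds are mm8 and GRCh38, and no roles are given. Starts and ends of 36 of the 42 member rows equal those of GENCODE v29, so coordinates are on GRCh38. RPKM times length gave whole reads for 100% of nonzero values, within 0.01 read. Reads served for the 95% Clopper-Pearson intervals and not for a test, since 1 library per group allows none across conditions. PCR copies are not independent molecules.

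The members, their classes (COL7A1 with the basement membrane) and the other gene lists were chosen with earlier results of these data known. Each measured member is described, with up to 4 genes of each other list by size of ratio. The receptors ITGA3, ITGA6, ITGA5, ITGAV, CD44 and MRC2 are named outside that rule. One listed gene is not reported here. Exons of 9 members overlap another row, and their reads cannot be told apart. Marker lists covered the line, fibroblasts, endothelium, leukocytes and muscle. RefSeq promoter windows (GRCh38.p14) were found for 35 members. The code for ratios and intervals was checked on reads simulated with counting error only, with changes placed in well-covered rows. That check covers neither scarce rows nor spread between libraries. Alternatives numbered 12, of which 4 were chosen after seeing the data. Tables were handled with pandas 2.3.3 and numpy 2.4.6, intervals with scipy 1.17.1 and figures with matplotlib 3.10.9, under Python 3.11.15.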

Additional observations from a re-analysis of the deposited data

How the results depend on the processing

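With only 1 library on each side, no paired analysis was possible. Nor could a library be left out, since without either there is nothing to compare. Members past 2-fold stayed at 0 in each class under the alternatives, apart from 1 lower interstitial member, FBLN1, with no level filter and on the TPM scale. At 1.5-fold, 2 of the 10 measured basement membrane members were lower (20%) and 1 higher (10%). Of the 16 measured interstitial members, 2 were lower (12.5%) and 1 higher (6.25%). Over all measured rows the shares were 9.55% and 9.11%, and these calls are too few to set either class apart. The median log2 ratio of basement membrane members was -0.15. It was -0.0265 with no level filter and for rows of at least 5 kb, -0.30 in TPM and with equal summed RPKM on the same rows, and -0.26 with COL7A1 moved to the interstitial matrix and over rows overlapping no other. These settings change which few members enter, or the scale. The interstitial median was -0.0370. It was -0.21 in TPM and -0.19 with equal summed RPKM on the same rows, and turned to 0.06 with no level filter and 0.0059 with mitochondrial reads left out.

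Among all rows, 516 were 2-fold lower and 478 higher. Adding 1 RPKM in place of 0.1 gave 259 and 176. Dropping the level filter gave 2043 and 2173, raising it to 5 RPKM gave 177 and 83, and counting from 1.5-fold gave 1421 and 1355. There were 315 and 307 over rows overlapping no other, 290 and 166 from 30 reads, and 129 and 31 from 5 kb. In TPM, with the level required on that scale, 1128 were lower and 609 higher; with equal summed RPKM on the same rows 713 and 339. Of 292 values of single members under alternatives, 45 moved by more than their counting interval and 11 had the opposite sign. The other 247 are no measure of stability, because settings that only choose rows leave a member's ratio unchanged. In TPM 21 of 31 members moved by more than their interval, and with equal sums also 21 of 31. Members under 1 RPKM rest on at most 78 reads, too few to place most folds.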
